A study of Mus musculus with 3 samples.

Results

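The 10 genes described here belong to the nuclear factor kappa B (NF-kB) response and were followed across the immune cells of the mouse pancreas after a single dose of yeast beta-glucan. They were chosen by name as NF-kB targets, subunits and feedback inhibitors, 10 of the 31053 genes counted in each library, with earlier results of these data known. The cytokine genes Tnf and Il6 and the intracellular target Tnfaip2 stand for the output of the pathway. Tnfaip3, Tnip3 and Nfkbia encode feedback inhibitors, Nfkbiz a nuclear member of the IkB family, and Nfkb1, Nfkb2 and Relb subunits of the transcription factor.

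The study asked how the pancreas responds to a stimulus of trained immunity, the lasting change in innate cells after a first exposure. Single-cell RNA sequencing (10x Genomics, 3' tags with unique molecular identifiers, UMIs) was done on live CD45+ cells sorted from digested pancreas. One library came from mice given PBS, 1 from mice given WGP 3 days before the harvest and 1 from mice given WGP 7 days before it. WGP is particulate beta-glucan from the wall of Saccharomyces cerevisiae, and the study's methods give an intraperitoneal injection into wild-type C57BL/6 mice of both sexes aged 6 to 8 weeks. No group carried a transgene or deletion as far as the sources say, the number of mice behind a library was not given in the sources used here, and a sort on CD45 leaves out most cells that are not leukocytes.

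NF-kB is a family of dimeric transcription factors held in the cytoplasm by IkB proteins. Receptors for microbial products, interleukin-1 and tumour necrosis factor activate kinases that mark the IkB proteins for destruction, and the freed dimers enter the nucleus and switch on inflammatory genes. Several of the induced genes encode inhibitors of the same route, so that in macrophages and neutrophils a burst of NF-kB activity is usually followed by a rise of its own brakes. A slower, noncanonical route works through the products of Nfkb2 and Relb.

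The promoters show where such dimers could bind in these genes. RefSeq promoters on GRCm38.p6, from 250 bases before to 50 bases after a transcription start, were found for 7 of the 10 members, and Nfkbiz, Nfkb1 and Relb had no entry. A match to the kappaB consensus, the preferred sequence of NF-kB dimers, was searched on both strands. It was present for 5 of those 7 genes, in 7 of their 10 promoters, against 4.51% of all 32851 promoters. The genes were chosen as NF-kB targets and regulators, so this comparison is not independent of that choice. Tnf and Tnfaip2 had no match in this window, which says nothing about sites elsewhere. The windows below are given on the strand of the gene, with the match in capitals and the position of its first base counted from the start, to show how the inhibitor genes and Il6 carry the sequence close to their start sites. Nfkb2 has 3 annotated starts, and its match at -39 overlaps a further match at -38. Its match at -225 of the most downstream start is also the match at position 10 of the middle start, so these promoters share a site.
Il6, -44, chr5:30013050-30013099: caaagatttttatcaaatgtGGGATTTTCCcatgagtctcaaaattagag
Tnfaip3, -125, chr10:19015506-19015555: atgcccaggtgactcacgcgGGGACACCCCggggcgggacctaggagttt
Tnfaip3, -12, chr10:19015411-19015442: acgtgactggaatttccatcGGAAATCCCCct
Tnip3, -54, chr6:65590324-65590373: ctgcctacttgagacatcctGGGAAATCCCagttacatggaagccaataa
Nfkbia, -29, chr12:55492648-55492696: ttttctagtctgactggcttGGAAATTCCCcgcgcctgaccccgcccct
Nfkb2, -39, chr19:46304678-46304727: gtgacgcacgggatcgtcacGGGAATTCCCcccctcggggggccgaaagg
Nfkb2, most downstream start, -225, chr19:46305685-46305734: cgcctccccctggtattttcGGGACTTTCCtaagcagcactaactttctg

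Barcodes with at least 1000 UMIs and at most 30% mitochondrial UMIs were kept as cells, which left 5249 cells in the PBS library, 4879 in the 3-day library and 4174 in the 7-day library, with median depths of 5755, 5754 and 8077 UMIs per cell. Cells were clustered without the 10 members and without the other NF-kB pathway genes, so that a class is not built on them, and classes were named from fixed markers. Libraries shared between 1 and 9 barcodes, and no barcode was in all 3. The libraries held cells with Xist and cells with Y-linked transcripts in different proportions. Of the monocyte/macrophages that could be assigned, 98.8% had Xist in the PBS library, 14.4% in the 3-day library and 48.8% in the 7-day library, so a difference of sex or animal cannot be told apart from treatment in all cells of this class. The Xist share also differed in conventional dendritic cells (77.3%, 8.81% and 27.2%), neutrophils (76.5%, 13.3% and 30.6%), NK cells (67.9%, 7.11% and 36.6%), ILC2 (45.7%, 3.01% and 36.4%), plasma cells (36.2%, 5.29% and 2.78%) and gamma-delta T cells (30.1%, 3.62% and 25.0%). It was close in B cells (27.0%, 25.4% and 29.9%) and T cells (42.7%, 39.0% and 40.4%). For some of these classes, values within Xist cells or within Y cells are given where both libraries compared held at least 50 such cells. A level is given as CPM, the UMIs of a gene per 1000000 UMIs summed over the cells of a class in 1 library, with an exact 95% Poisson interval. A log2 ratio of CPM has an exact conditional binomial interval, and a share of cells an exact binomial one. With 1 library per group there was no test, and the intervals cover counting error only. A gene was called at least 2-fold higher or lower when the ratio of CPM + 10 passed 2, among genes with a mean of at least 10 CPM in the class. Both WGP libraries were compared with the same PBS library. Within a class, fewer cells in a responding state and less RNA per cell of a gene cannot be told apart from a sum, and the states are therefore described after the class.

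In monocyte/macrophages all 3 output genes and the feedback inhibitors Tnfaip3 and Nfkbia were over 2-fold higher in both WGP libraries than in PBS. Tnfaip2 was 8.30-fold higher on day 3 and 14.9-fold higher on day 7. Nfkb1 lay within 1.30-fold of PBS at both times, and Nfkb2 and Relb were over 2-fold higher by CPM on day 7 but within 1.33-fold on day 3. The day 3 log2 ratio of Relb depended on depth, at 0.35 (0.14 to 0.57) from all UMIs and 1.11 (0.25 to 2.02) with cells thinned to 1000 UMIs, and that of Nfkb2 was 0.41 and 0.66 (-0.24 to 1.59). Of the 10 members, 6 were called higher on day 3 and 0 lower, where 3.48% of the 7647 genes tested were called higher and 2.94% lower. On day 7, 7 of 10 were called higher and 0 lower, where 4.08% of genes were higher and 5.01% lower. The median log2 ratio of the members was 1.21 on day 3 and 1.30 on day 7, against -0.03 and -0.11 over all genes tested.

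**Figure D1:**
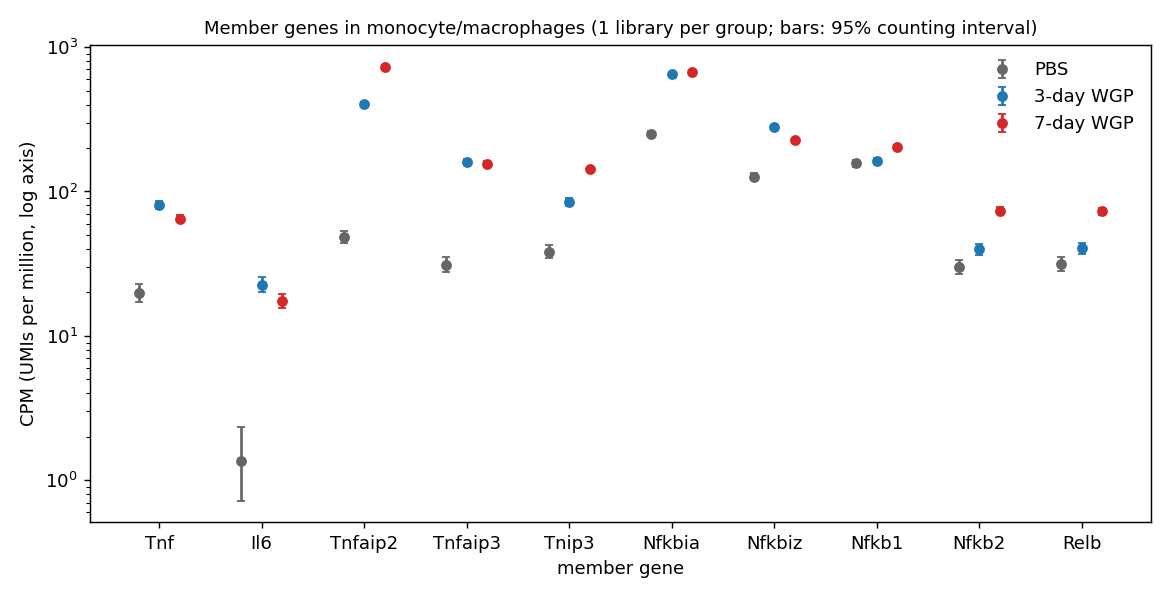
CPM of the 10 member genes in monocyte/macrophages on a log axis, 1 point per library (grey PBS, blue 3-day WGP, red 7-day WGP), with bars for the 95% counting interval. Tnf, Il6, Tnfaip2, Tnfaip3, Tnip3, Nfkbia and Nfkbiz lie above PBS in both WGP libraries, Nfkb2 and Relb are highest on day 7, and the 3 points of Nfkb1 lie between 157 and 203 CPM.

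Among the secreted targets, Tnf, the gene of tumour necrosis factor (ENSMUSG00000024401, chr17:35199381-35202007, minus strand), stood at 19.9 CPM in PBS (17.2 to 22.9), 80.9 CPM on day 3 (75.9 to 86.2) and 64.8 CPM on day 7 (61.0 to 68.7). The 3 intervals did not overlap, and the level was highest on day 3 in all cells but on day 7 in the Xist cells described later. The log2 ratio to PBS was 2.02 (1.80 to 2.26) on day 3 and 1.70 (1.48 to 1.93) on day 7. After each cell was thinned to 1000 UMIs, 1.15% of the cells had a Tnf UMI in PBS, 7.03% on day 3 and 5.23% on day 7, and without thinning 13.2%, 28.9% and 24.8%. B cells, which served as a class with little Tnf, had 0.254%, 0.595% and 0.194% after thinning, at median depths of 3858, 4226 and 5014 UMIs against 10173, 14042 and 10853 in monocyte/macrophages.

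Il6, the gene of the cytokine interleukin-6 (ENSMUSG00000025746, chr5:30013114-30019981, plus strand), was the scarcest member. It had 13 UMIs in 8 cells in PBS, 270 UMIs in 61 cells on day 3 and 305 UMIs in 99 cells on day 7. These counts corresponded to 1.36, 22.7 and 17.5 CPM, a log2 ratio of 4.06 (3.26 to 4.99) on day 3 and 3.69 (2.89 to 4.61) on day 7. Few cells carried much of the sum, with up to 30 UMIs in 1 cell on day 3 and up to 18 on day 7. In the PBS library Il6 was higher in ILC2, described later, at 19.6 CPM (12.9 to 28.5), in a cluster that also carried mast cell markers.

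Tnfaip2 encodes a cytoplasmic protein induced by tumour necrosis factor (ENSMUSG00000021281, chr12:111442469-111455018, plus strand). It was higher in each later library, with 48.4 CPM in PBS (44.1 to 53.1), 402 CPM on day 3 (391 to 413) and 723 CPM on day 7 (710 to 736). Day 7 against day 3 gave a log2 ratio of 0.85 (0.80 to 0.90). Thinned shares of cells were 4.84%, 24.3% and 41.5%, against 0%, 0.119% and 0.969% in B cells.

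Among the feedback inhibitors, Tnfaip3, a ubiquitin-editing enzyme that shuts off signalling below the receptors (ENSMUSG00000019850, chr10:19000910-19015657, minus strand), stood at 31.2 CPM in PBS, 160 CPM on day 3 and 156 CPM on day 7. Its log2 ratio was 2.36 (2.19 to 2.54) on day 3 and 2.32 (2.15 to 2.50) on day 7, and the 2 WGP libraries did not differ beyond counting error (-0.04, -0.12 to 0.05). Nfkbia encodes IkB-alpha, the inhibitor that binds NF-kB dimers in the cytoplasm (ENSMUSG00000021025, chr12:55489410-55492647, minus strand). It had the same shape, at 251 CPM in PBS, 653 CPM on day 3 and 671 CPM on day 7, with log2 ratios of 1.38 (1.31 to 1.45) and 1.42 (1.35 to 1.48). Thinned shares of cells with Nfkbia were 19.2%, 41.9% and 43.3%, against 18.2%, 15.8% and 18.0% in B cells. Tnip3 encodes a partner of the Tnfaip3 protein (ENSMUSG00000044162, chr6:65525313-65634040, plus strand), and it was later, at 38.2 CPM in PBS, 84.1 CPM on day 3 and 143 CPM on day 7. On the scale of CPM + 10 its log2 ratio of 0.97 on day 3 was just under the 2-fold limit, and on day 7 it was 1.66.

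Nfkbiz, whose product acts in the nucleus as a cofactor for secondary NF-kB targets such as Il6 (ENSMUSG00000035356, chr16:55811375-55838899, minus strand), went the other way in time. It stood at 126 CPM in PBS, 279 CPM on day 3 and 228 CPM on day 7, which were log2 ratios to PBS of 1.14 (1.04 to 1.24) and then 0.85 (0.76 to 0.94). Its day 3 value was just over 2-fold on the CPM + 10 scale (1.08) and its day 7 value under it (0.80).

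Of the subunit genes, Nfkb1 differed least from PBS. Nfkb1, which encodes the precursor of a DNA-binding subunit of the canonical dimer (ENSMUSG00000028163, chr3:135584655-135691547, minus strand), stood at 157, 162 and 203 CPM, and its interval on day 3 spanned 0 (0.05, -0.04 to 0.15). Nfkb2, the precursor of the noncanonical subunit (ENSMUSG00000025225, chr19:46304320-46312385, plus strand), stood at 30.03, 39.8 and 73.4 CPM. Relb, its partner in the noncanonical dimer (ENSMUSG00000002983, chr7:19606217-19629438, minus strand), stood at 31.6, 40.4 and 72.9 CPM. Both were higher on day 7 than on day 3, with log2 ratios of 0.88 (0.73 to 1.04) and 0.85 (0.70 to 1.01), and on the CPM + 10 scale against PBS the day 7 value of Nfkb2 (1.06) passed 2-fold and that of Relb (0.99) did not. Between the WGP libraries 0 of 10 members passed 2-fold in either direction, where 0.981% of genes were higher on day 7 and 1.56% lower.

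Within Xist cells alone the day 7 ratios had the same sign as in all cells, with smaller values for members such as Tnfaip3 and Nfkbia. The picture on day 3 differed more. Among 570 Xist monocyte/macrophages on day 7 and 814 in PBS, log2 ratios were 1.52 (1.27 to 1.79) for Tnf, 3.67 (3.53 to 3.82) for Tnfaip2, 1.95 (1.76 to 2.15) for Tnfaip3 and 1.25 (1.17 to 1.32) for Nfkbia, and 5 of 10 members were called higher, where 3.37% of genes in these cells were higher and 4.75% lower. The 84 Xist cells of day 3 gave -0.26 (-1.001 to 0.41) for Tnf, 1.38 (1.11 to 1.65) for Tnfaip2, 0.69 (0.27 to 1.09) for Tnfaip3, 0.44 (0.28 to 0.59) for Nfkbia and -0.71 (-1.31 to -0.16) for Tnip3, and 2 members, Tnfaip2 and Nfkbiz, were called higher, where 2.02% of genes were higher and 1.2% lower. Il6 had 3 UMIs in those 84 cells and 12 in the Xist cells of PBS. Its log2 ratio was 0.91 (-1.55 to 2.80) on day 3, and 3.13 (2.24 to 4.14) on day 7. Those 84 cells also had another makeup, with 22 resident macrophages and 16 Arg1 macrophages, whereas of the 498 Y cells of day 3, 42 were resident and 294 Arg1 macrophages. PBS held 10 Y monocyte/macrophages, too few for the same ratio within Y cells. Among Y cells, day 7 against day 3 gave -0.40 (-0.56 to -0.24) for Tnf, 0.88 (0.83 to 0.94) for Tnfaip2, 1.02 (0.82 to 1.22) for Nfkb2 and 1.06 (0.87 to 1.26) for Relb. Among Xist cells the same comparison gave 1.78 (1.13 to 2.51) for Tnf, from 380 and 20 UMIs, 2.29 (2.06 to 2.53) for Tnfaip2, 0.95 (0.47 to 1.46) for Nfkb2 and 0.73 (0.27 to 1.23) for Relb. Tnf thus went in opposite directions between the times in Xist and in Y cells, while Tnfaip2, Nfkb2 and Relb were higher on day 7 in both. Tnfaip3 and Tnip3 of the Xist cells were also higher on day 7 than on day 3, by log2 ratios of 1.26 (0.88 to 1.65) and 2.45 (1.92 to 3.04), against 0.01 (-0.09 to 0.12) and 0.61 (0.48 to 0.73) in Y cells.

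**Figure D2:**
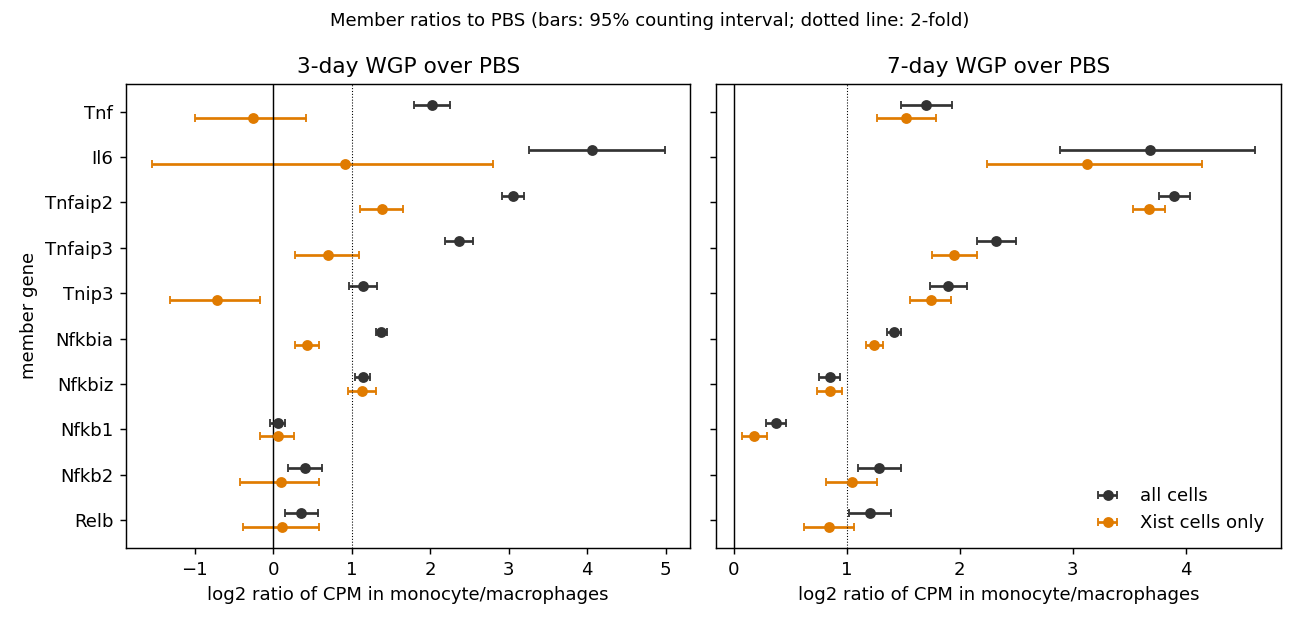
Log2 ratios of CPM to PBS for the 10 members in monocyte/macrophages, 3-day WGP at left and 7-day WGP at right, in all cells (black) and in Xist cells only (orange), with 95% counting intervals. On day 7 both sets of points have the same sign, with lower values in the Xist cells for members such as Tnfaip3 and Nfkbia. On day 3 Tnf, Il6, Tnfaip2, Tnfaip3, Tnip3 and Nfkbia are lower in the Xist cells, with a wide interval for Il6, and Nfkbiz stays near 1.13.

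Markers of other cells also differed between the sums of this class. The 8 neutrophil markers summed to 146, 565 and 189 CPM, the 8 T cell markers to 11.9, 62.2 and 45.2 CPM, the 8 B cell markers to 197, 123 and 83.8 CPM and the 8 acinar markers to 610, 95.4 and 85.4 CPM in PBS, day 3 and day 7. Of the neutrophil markers 1 was at 0 in PBS, and none of the T or B cell markers was at 0. Leaving out the sub-clusters led by B cell and by T and NK cell genes gave 6 and 7 members higher, the same counts. This step does not take out neutrophil RNA, whose part in the members' levels was not tested. The 19 immediate early and heat shock genes, which dissociation of a tissue can raise, summed to 8051, 12437 and 14110 CPM, and their part in the members' levels was not tested. RNA free in the droplets was estimated from acinar markers in B, T and NK cells, at 0.890% to 1.70% of a cell's UMIs. At these shares it would add at most 7.95 CPM to any member (Nfkbia, day 3). In the free RNA itself the acinar markers stood at 8036, 4594 and 8478 CPM. Against the sums in this class, the share in PBS was larger than in those lymphocytes, so 7.95 CPM is not an upper limit here.

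Cells of the class were clustered again, without members or pathway genes, and 4 of the 9 sub-clusters could be named. Resident macrophages, defined by genes such as Mrc1 and Folr2, held 592 cells in PBS, 90 on day 3 and 31 on day 7. Arg1 macrophages held 10, 406 and 245 cells, Ly6C-high monocytes 26, 140 and 373, and Ly6C-low monocytes 122, 44 and 102. A further sub-cluster led by Ly6i, Cxcl9 and Ccl5 matched no fixed state and held 27, 46 and 679 cells. The makeup of the class therefore differed between the libraries, and levels within a state are given next.

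Within resident macrophages Tnf stood at 21.2 CPM in PBS and 21.5 CPM on day 3 (log2 ratio 0.02, -0.77 to 0.74). Nfkbiz was called higher on day 3, from 109 to 245 CPM, and Tnip3 was called lower, from 33.5 to 9.57 CPM, where 1.1% and 0.93% of genes in this state were called higher and lower. The other tested members were not called. Of these, Tnfaip3 stood at 26.7 CPM in PBS and 61.0 CPM on day 3, a log2 ratio of 1.19 (0.71 to 1.65). On the CPM + 10 scale this was 0.95, just under the 2-fold limit. Nfkbia stood at 218 and 336 CPM (0.62, 0.43 to 0.81), and the intervals of Nfkb1, Nfkb2 and Relb spanned 0. Tnfaip2 was 27.0 CPM in PBS and 43.1 CPM on day 3 in these cells, the lowest of the named states at both times. Ly6C-low monocytes, the patrolling kind, had 120 CPM of Tnfaip2 in PBS and 315 CPM on day 7 (log2 ratio 1.39), and this was the 1 member of 9 tested that was called higher there, where 0.723% of genes were.

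Arg1 macrophages had the highest Tnf of the states with at least 50 cells, 112 CPM on day 3, and 61.3 CPM on day 7. Il6 likewise was lower on day 7, at 29.3 and then 12.6 CPM, while Tnfaip2 went from 540 to 769 CPM. In this state 0 of 10 members passed 2-fold between the times, where 0.683% of genes were higher on day 7 and 0.383% lower. Nfkb2 and Relb stayed between 33.5 and 40.9 CPM there. The genes leading this state included Cd5l, Prg4 and Marco besides Arg1, and clustering at a finer resolution of 0.8 gave Arg1 macrophages (382 cells) and, apart from them, macrophages with peritoneal markers (278 cells). Their Tnf on day 3 was 114 and 112 CPM, and that of the Cxcl9 cells on day 7 was 111 CPM at that resolution, so these 3 did not separate. On day 7 these Arg1 and peritoneal-marker cells stood at 73.5 and 44.2 CPM.

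Ly6C-high monocytes had less Tnf, 38.9 CPM on day 3 and 40.1 CPM on day 7, but as much Il6 as Arg1 macrophages on day 3 (28.8 CPM). That Il6 level rests on 54 UMIs in 13 of 140 cells, with up to 19 UMIs in 1 cell. Between the times Tnfaip2 went from 215 to 464 CPM and Tnip3 from 54.3 to 143 CPM, and these 2 of 10 members were called higher, where 0.713% of genes were. The Ly6i, Cxcl9 and Ccl5 cells of day 7 stood highest of the states with at least 50 cells for 8 of the 10 members at that time, all but Nfkbiz and Nfkb1, and their Nfkbia overlapped that of Ly6C-high monocytes. Their Tnfaip2 was 931 CPM, Tnip3 184 CPM, Nfkb2 100 CPM and Relb 98.0 CPM. Ly6C-high monocytes of the same library had 69.4 CPM of Nfkb2 and 64.3 CPM of Relb, with intervals below those of the Ly6i, Cxcl9 and Ccl5 cells.

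**Figure D3:**
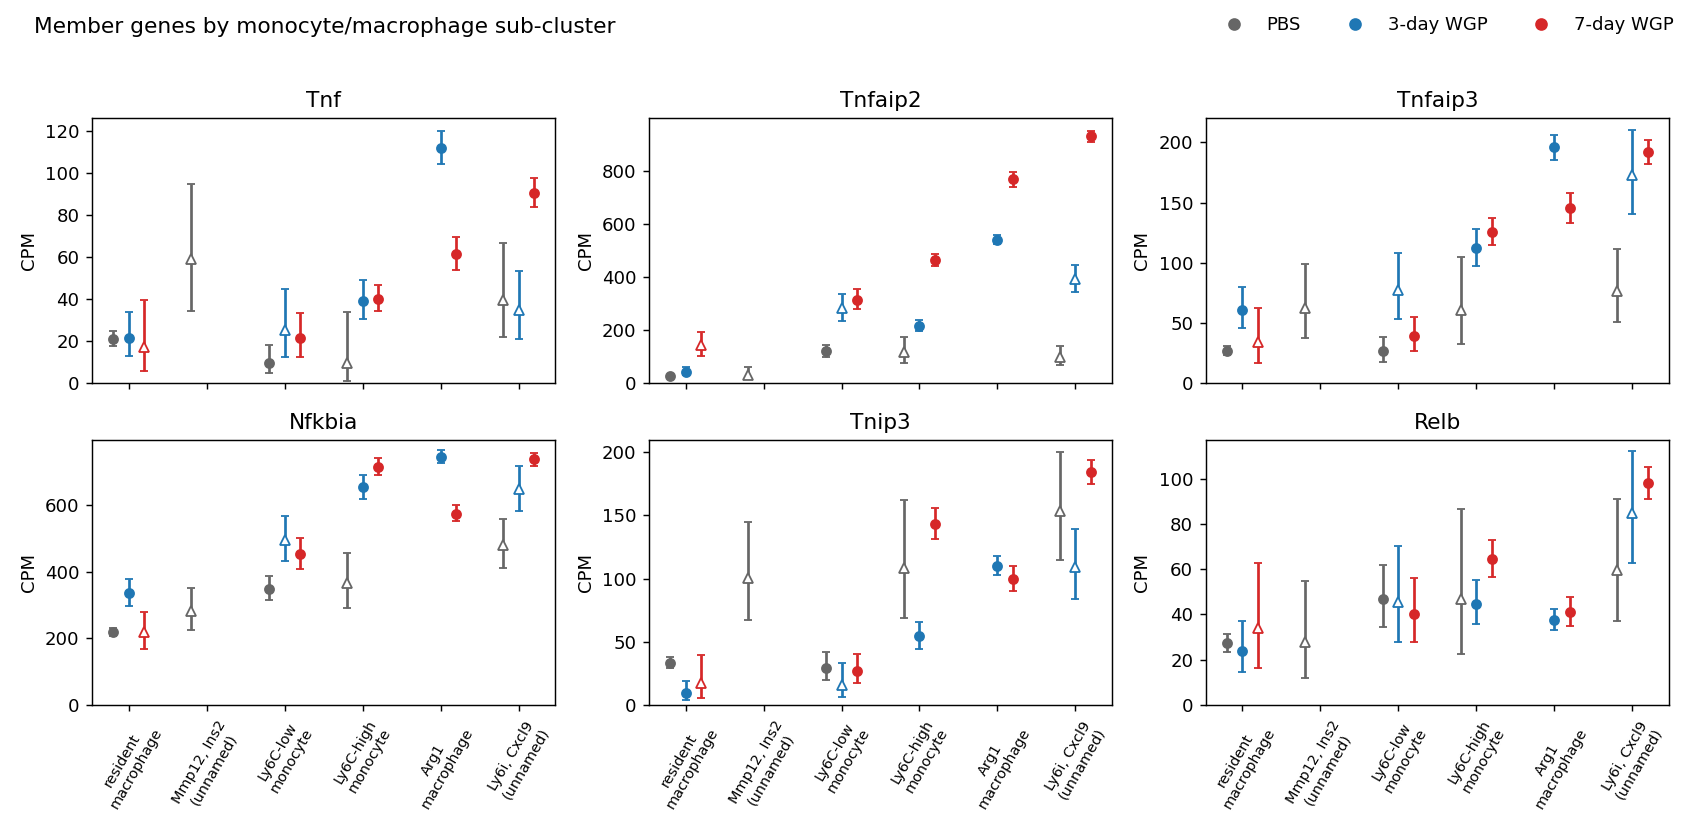
CPM of 6 members by sub-cluster of the monocyte/macrophages and library (grey PBS, blue 3-day WGP, red 7-day WGP), with 95% counting intervals; filled circles are sums over at least 50 cells and open triangles over 20 to 49 cells. Tnf is highest in the Arg1 macrophages of day 3 (112 CPM), and Tnfaip2, Tnip3 and Relb of day 7 are highest in the cells led by Ly6i and Cxcl9 (931, 184 and 98.0 CPM).

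Members were also found together in single cells. Among monocyte/macrophages thinned to 3000 UMIs on day 3, 105 had Tnf and 653 did not. Tnfaip3 was present in 56.2% of the cells with Tnf (46.2 to 65.9) and 27.3% of those without (23.9 to 30.8), Nfkbia in 87.6% and 62.9%, and Nfkbiz in 67.6% and 41.0%. The subunit gene Nfkb1 did not separate these cells, at 37.1% and 35.4%. On day 7, with 169 and 1260 cells, Tnfaip2 was present in 85.2% and 64.9% and Tnip3 in 44.97% and 20.6%, while Relb was present in 20.7% and 17.7%. Nfkb1 did separate the cells of day 7, at 55.6% (47.8 to 63.2) and 42.7% (39.9 to 45.5). In PBS, with 51 and 781 cells, Tnfaip3 was present in 11.8% (4.44 to 23.9) and 6.53% (4.90 to 8.50). Tnfaip2 was present there in 7.84% (2.18 to 18.9) and 11.7% (9.49 to 14.1). Cells of 1 library are not replicates, and these shares pool the states.

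The other NF-kB pathway genes were taken from a list of 98 receptors, adaptors, kinases, subunits, feedback genes and targets, of which 86 could be tested in monocyte/macrophages. On day 3, 21 were called higher and 0 lower, where 3.48% of all genes tested were higher and 2.94% lower. On day 7 these counts were 35 and 2, where 4.08% and 5.01% of genes were. The median log2 ratios of the pathway genes were 0.38 and 0.70, against -0.03 and -0.11 over all genes tested. Targets made up most of them, with 15 of 30 higher on day 3 and 21 of 30 on day 7, against 2 and 3 of 24 adaptors and kinases. The largest ratios on day 3 were those of Ptges (0.628 to 117 CPM) and Ptgs2 (8.89 to 98.1 CPM), enzymes of prostaglandin E synthesis, Il1a and Il1b, which encode interleukin-1, the chemokine genes Ccl5 and Cxcl1, the mitochondrial superoxide dismutase gene Sod2, and Ier3. On day 7, Ccl5 (18.2 to 1783 CPM) and Cxcl10 (41.96 to 942 CPM) were followed by Ptges, Ptgs2, Il1b (88.4 to 1473 CPM), the cytokine-signalling inhibitor Socs1 (6.17 to 95.8 CPM) and the interleukin-1 receptor antagonist gene Il1rn. Nos2, inducible nitric oxide synthase, had no UMI in PBS and 67.9 CPM on day 7. Besides Socs1, the feedback genes Socs3, Zfp36, Tnip1, N4bp1 and Birc3 were called higher on day 7, and so were the IkB family genes Nfkbib, Nfkbie and Bcl3, with log2 ratios of 1.26, 1.39 and 1.90. The 2 genes called lower were the receptor genes Tnfrsf11a (-1.70) and Tlr7 (-1.28).

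Neutrophils had the highest Tnf and Tnfaip2 of any class with at least 50 cells in either WGP library. Their Tnfaip2 was the highest in PBS as well, whereas their Tnf in PBS overlapped that of other classes. In the class as a whole, 91 cells in PBS, 249 on day 3 and 196 on day 7, Tnf stood at 27.3, 805 and 651 CPM and Tnfaip2 at 466, 1565 and 3238 CPM. Of the 8 members tested, 7 were called higher on day 3 and 8 on day 7, where 12.3% and 11.0% of all genes were. The immediate early and heat shock genes of the class also summed higher, to 10372, 19463 and 18558 CPM, with 8 of 19 called higher at each time, and their part in the members' levels was not tested. No ratio to PBS could be taken within Xist or within Y neutrophils, since PBS held 26 and 8 of them. Among Y cells, 98 on day 3 and 50 on day 7, the later time against the earlier gave log2 ratios of -0.28 (-0.52 to -0.04) for Tnf, 0.99 (0.85 to 1.13) for Tnfaip2 and -0.87 (-1.20 to -0.56) for Nfkbiz. The class joined 2 clusters whose proportions differed by library. Cluster 14, led by Hdc, G0s2, Cxcl2 and Il1b, had 52, 221 and 189 cells, and cluster 23, led by the granule genes Camp, Ngp, Lcn2 and Ltf, had 39, 28 and 7.

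Within cluster 14 alone, Tnf remained far apart from PBS, at 65.8 CPM in PBS (31.6 to 121, from 10 UMIs), 1054 CPM on day 3 and 831 CPM on day 7. The log2 ratio on day 3 was 4.00 (3.12 to 5.07), and thinned to 1000 UMIs 3.85%, 42.1% and 29.1% of the cells had a Tnf UMI. Nfkbia stood at 1692, 4253 and 4288 CPM and Tnfaip3 at 118, 391 and 399 CPM, with log2 ratios on day 3 of 1.33 and 1.72. Tnfaip2 was close to PBS on day 3 (1757 and 2018 CPM, log2 ratio 0.20, 0.01 to 0.39) and higher on day 7 (4110 CPM, 1.23). Nfkbiz stood at 810, 862 and 800 CPM, with overlapping intervals. Nfkb2 and Relb had 5 and 4 UMIs in PBS, so their ratios of 1.39 and 1.77 on day 3 rest on few counts. Tnip3 stayed below 7.5 CPM in all 3 libraries. In this cluster 12.4% of genes were called higher on day 3 and 12.5% on day 7, and the immediate early and heat shock genes summed to 30719, 23383 and 22651 CPM, highest in PBS.

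**Figure D4:**
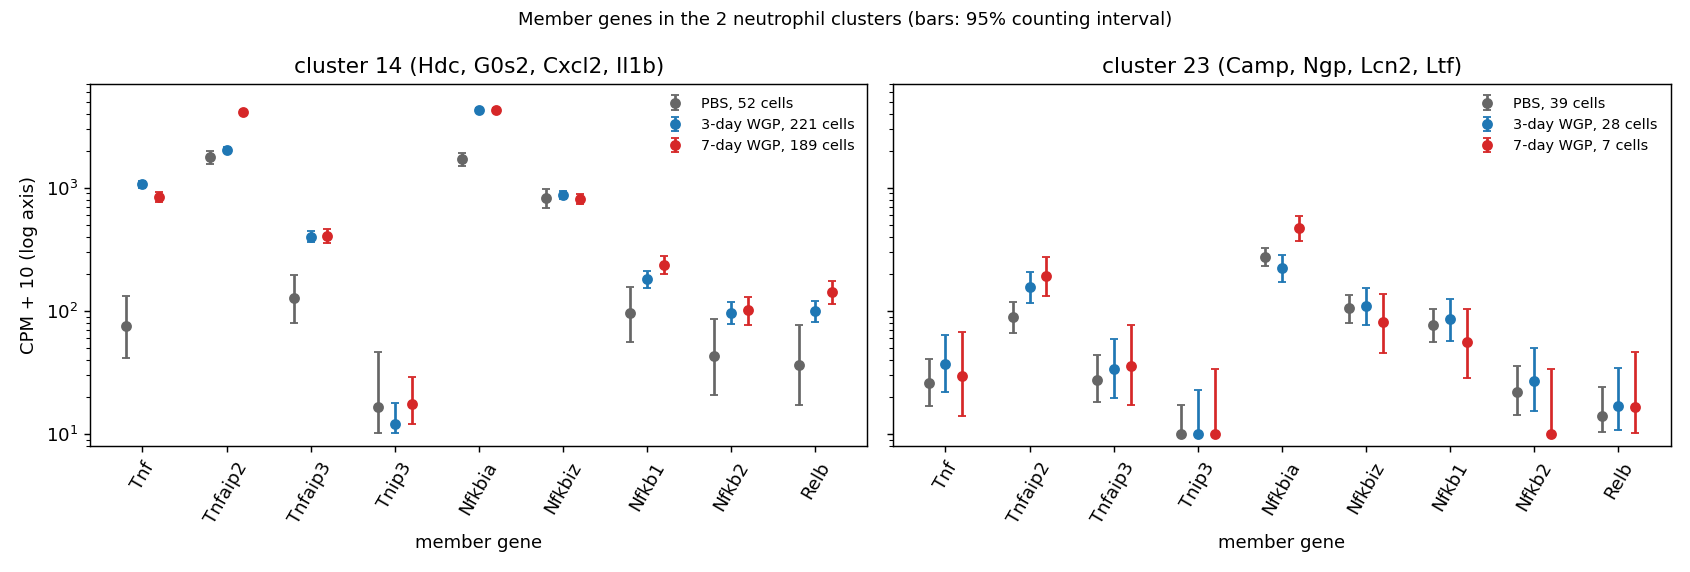
CPM + 10 on a log axis for 9 members in the 2 neutrophil clusters, by library (grey PBS, blue 3-day WGP, red 7-day WGP), with 95% counting intervals. In cluster 14 Tnf is far above PBS in both WGP libraries (65.8, 1054 and 831 CPM), while the points of Nfkbiz lie together (810, 862 and 800 CPM).

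Conventional dendritic cells, which prime T cells, had the highest Relb of the classes with at least 50 cells in each library, at 77.9 CPM in PBS, 152 CPM on day 3 and 141 CPM on day 7. The Relb interval stood apart on day 3 only. It overlapped those of NK and gamma-delta T cells in PBS and that of gamma-delta T cells on day 7. The log2 ratios of 0.97 and 0.86 stayed below 2-fold, and within Y cells they were 1.29 (0.85 to 1.76) and 1.34 (0.91 to 1.80). Within Xist cells (221 in PBS, 82 on day 7) the day 7 ratio of Relb was 0.29 (-0.02 to 0.60), and day 3 held 17 such cells, too few for a ratio. Cluster 12, led by Cd209a, Fscn1 and Ccl22, carried most of it, with 121, 338 and 198 CPM of Relb against 25.4, 31.5 and 55.6 CPM in cluster 15, the Xcr1 cells. Tnip3 was called lower on day 3 in the class as a whole, at 115, 33.4 and 127 CPM (log2 ratio -1.78, -2.09 to -1.47), where 0.593% of genes were. Within Y cells the same ratio was 0.10 (-0.59 to 0.85). On day 7, Tnfaip2 (6.06, 16.6 and 58.3 CPM) and Nfkb2 (39.8, 57.8 and 96.5 CPM) were called higher, 2 of 9 members tested against 2.02% of genes. Both were higher within Xist cells too, with log2 ratios of 3.04 (2.33 to 3.80) for Tnfaip2 and 0.86 (0.48 to 1.24) for Nfkb2, and within Y cells these were 3.46 (2.08 to 5.35) and 1.87 (1.25 to 2.56). Tnf was low, at 16.9, 11.6 and 8.41 CPM.

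Plasmacytoid dendritic cells, the interferon producers, numbered 50, 83 and 68. Of the 8 members tested, Tnf was called higher at both times, at 2.74, 31.7 and 36.2 CPM, which rest on 1, 19 and 21 UMIs. Tnfaip2 was called higher on day 7, with 0, 2 and 29 UMIs. Tnfaip3 was called lower on day 3 (126, 56.7 and 129 CPM, from 46, 34 and 75 UMIs), a direction opposite to that in all monocyte/macrophages and all neutrophils. That made 1 member higher and 1 lower on day 3, where 2.05% and 1.84% of genes were, and 2 higher and 0 lower on day 7, where 4.0% and 2.33% were.

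Group 2 innate lymphoid cells (ILC2), tissue lymphocytes of type 2 immunity, had the highest Nfkbia of the classes in PBS, 1805 CPM, and 3441 CPM on day 3. In the same cells Tnfaip3 stood at 698 and 1213 CPM, Nfkbiz at 549 and 833 CPM and Nfkb1 at 384 and 521 CPM. The log2 ratios were 0.93, 0.80, 0.60 and 0.44, so 0 of 8 members tested passed 2-fold, where 1.14% of genes were that much higher and 0.805% lower. Il6 stood at 19.6 CPM in PBS (12.9 to 28.5), the highest of the classes with at least 50 cells, and at 8.97 CPM on day 3 (4.10 to 17.0). The class held 295 cells in PBS, 301 on day 3 and 15 on day 7, too few to compare on day 7. Its immediate early and heat shock genes summed to 22936 and 24825 CPM, against 7980 and 6309 CPM in T cells. Its cluster also carried mast cell markers, with Cma1, Cpa3 and Mcpt4 among its leading genes. Which of its cells carried the Il6 and Nfkbia levels was not tested.

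In all T cells, members were called on day 7 and not on day 3. Nfkbia stood at 265, 282 and 565 CPM, Nfkbiz at 40.2, 63.1 and 146 CPM and Nfkb2 at 21.9, 21.9 and 62.2 CPM. These 3 of 7 members tested were called higher on day 7, where 1.32% of genes were, and 0 of 7 on day 3, where 0.243% were. The class joined clusters whose proportions differed by library. Cluster 0, led by genes such as Ikzf2 and Ifng, held 373, 421 and 591 cells. Cluster 13, led by genes such as Dapl1 and Lef1, held 182, 233 and 118, and the part of this makeup was not tested. The size depended on which cells were compared. Within Xist cells (150 in PBS, 214 on day 7) the log2 ratios were 0.24, 0.74 and 0.71, and within Y cells (201 and 316) 1.18, 1.87 and 2.30. Day 3 depended on the cells as well. Within Xist cells (150 in PBS, 149 on day 3) Nfkbia stood below PBS by a log2 ratio of -1.21 (-1.51 to -0.92), Tnf by -2.49 (-4.03 to -1.23), Relb by -1.19 (-1.97 to -0.45) and Nfkb2 by -1.17 (-2.14 to -0.27). Within Y cells (201 and 233) these ratios were 0.04 (-0.19 to 0.27), 0.37 (-0.89 to 1.77), -0.37 (-0.997 to 0.27) and 0.83 (-0.17 to 1.95). Tnf was highest in PBS, at 27.4, 12.0 and 18.0 CPM. The Il6 count of T cells on day 3 was 25 UMIs, of which 23 were in 1 cell.

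Gamma-delta T cells (134, 399 and 62) had Nfkbia at 337, 285 and 907 CPM and Nfkbiz at 25.1, 35.9 and 107 CPM. These 2 of 7 members tested were called higher on day 7, where 2.23% of genes were. Their Tnf, 48.6 CPM, was the highest of the classes in PBS, with an interval that overlapped those of T cells and neutrophils. NK cells had Nfkbiz at 15.9, 52.5 and 92.8 CPM, with 9 UMIs in PBS, and it was the 1 member of 6 called higher on both days, where 0.83% and 1.63% of genes were. Within Xist NK cells (53 in PBS, 108 on day 7) its day 7 log2 ratio was 2.09 (0.89 to 3.59), from 6 and 65 UMIs. B cells and plasma cells had 0 of 6 members tested called at either time. In B cells 0.953% of genes were higher and 0.126% lower on day 3, and 0.266% and 0.21% on day 7. In plasma cells these shares were 0.156% and 0.468%, and 0.701% and 3.51%. Plasma cells did have less Tnfaip3 after WGP, at 49.8 CPM in PBS (45.0 to 54.8), 26.9 CPM on day 3 (24.5 to 29.4) and 22.8 CPM on day 7 (18.1 to 28.5). The median log2 ratio of the 6 members there was -0.40 on day 3 and -0.11 on day 7, against 0.003 and -0.40 over all genes tested. B cells kept Nfkb1 at 158, 166 and 167 CPM, Nfkb2 at 46.6, 47.4 and 45.1 CPM and Relb at 44.97, 39.0 and 46.3 CPM. Within Xist B cells Tnfaip3 had a log2 ratio on day 3 of 0.91 (0.36 to 1.45), and within Y B cells of -0.93 (-1.32 to -0.56). Erythroid cells had at most 12.7 CPM of any member.

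**Figure D5:**
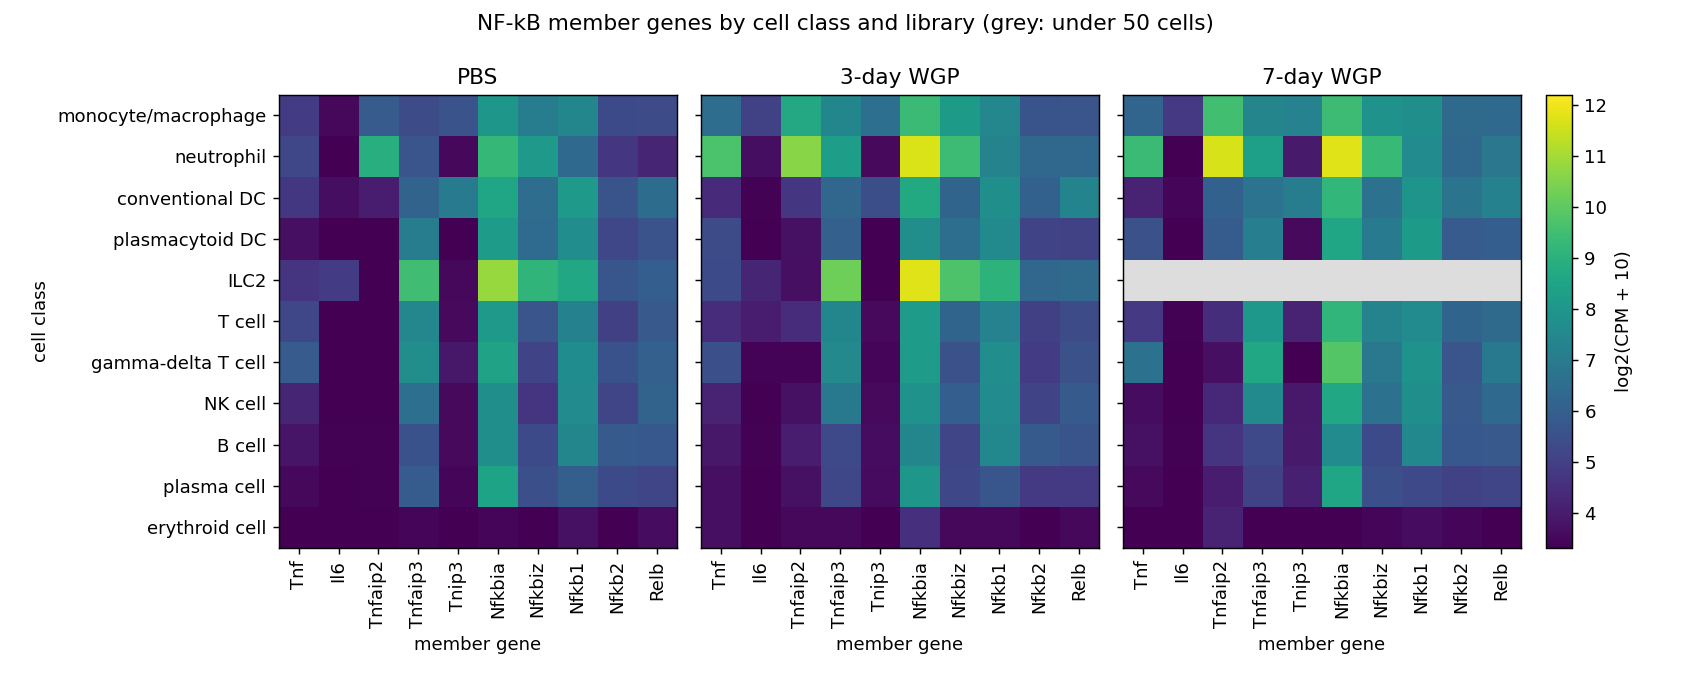
Levels of the 10 members as log2(CPM + 10) in 11 cell classes, 1 panel per library (PBS, 3-day WGP, 7-day WGP), with classes of fewer than 50 cells in grey. Tnf and Tnfaip2 are brightest in neutrophils after WGP, Nfkbia is bright in neutrophils and in ILC2, and the erythroid row is dark throughout.

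The order of the classes differed by member. For Tnf, gamma-delta T cells, T cells, neutrophils and monocyte/macrophages did not separate in PBS beyond their intervals, neighbour by neighbour, whereas on day 3 neutrophils stood above monocyte/macrophages and these above gamma-delta T cells. For Nfkbia the order in PBS was ILC2, neutrophils and conventional dendritic cells, and on day 3 ILC2 and neutrophils overlapped. For Nfkb2, B cells, ILC2, conventional dendritic cells and gamma-delta T cells overlapped in PBS, and on day 7 conventional dendritic cells (96.5 CPM) stood above monocyte/macrophages (73.4 CPM). Tnip3 was limited to conventional dendritic cells, monocyte/macrophages and unnamed clusters, with at most 8.10 CPM in every other class with at least 50 cells.

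Across the 33 sums of a class in a library with at least 50 cells, which share the 3 libraries, the members fell into recognisable company by Pearson's r of log2(CPM + 10). Nfkb2 and Relb followed each other (r = 0.911), as did Nfkbia and Nfkbiz (0.903) and Nfkbia and Tnfaip3 (0.861), while Tnf and Tnip3 did not (0.119). Outside the lists, Tnfaip2 was most like Clec4e (0.981) and Clec4n (0.977), C-type lectin receptor genes of myeloid cells, and Tgm2 (0.972). Relb was most like Tap1 (0.913) and Tap2 (0.902), the peptide transporter of antigen presentation, and Crtc2 (0.884), and Nfkb2 most like Tap1 (0.888), Samhd1 (0.885) and Crtc2 (0.883). Nfkbia was most like Pim1 (0.947), Csrnp1 (0.926) and Skil (0.912), and Nfkbiz like Per1 (0.899), Dusp1 (0.898) and Kdm6b (0.887). Tnf was most like Tmem140 (0.882), Fas (0.879) and Plk3 (0.870), and Il6, at a mean of 2.57 CPM, most like Arg1 (0.898), Slc7a8 (0.810) and Rnf128 (0.784). Among the most like for the remaining members were Gpr132 (0.933), Nabp1 (0.908) and Ifrd1 (0.906) for Tnfaip3, Slamf8 (0.927), Ifi205 (0.924) and Pid1 (0.914) for Tnip3, and Emd (0.963) and Mat2a (0.958) for Nfkb1.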

How the data were processed

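The deposited files hold raw UMI counts per gene and droplet barcode for 3 libraries. The authors made these counts with Cell Ranger 3.1.0 on the mm10 reference, without normalization or cell filtering in the files used here, and every column was used. The files total 52464690 (PBS), 56849043 (3-day WGP) and 48219246 (7-day WGP) UMIs, of which cells held 46240979, 51793608 and 41749724. Barcodes with at least 1000 UMIs and at most 30% mitochondrial UMIs were kept, which removed 440, 206 and 347 barcodes for mitochondrial content. Scrublet's automatic call marked 0, 0 and 2 cells, so it did not work here and no doublets were removed; removing the cells with the highest doublet scores was an alternative.

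Counts were normalized with sctransform 0.4.2 in Seurat 5.3.0 (R 4.3.3) with cell cycle, mitochondrial and ribosomal content regressed, reduced to 30 principal components and clustered at resolution 0.8, and monocyte/macrophages again at 0.4. Members and pathway genes were left out of the 3000 variable genes. A cluster took the name of the marker list with the highest score when at least 3 markers and 50% of the list were raised. This share was set after the clusters were seen, and 4 of 26 clusters stayed unnamed (435, 127 and 211 cells). Sums were computed in Python 3.11.15 with scipy 1.17.1. The statistics were tested on simulated data before use.

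All 10 members are named. Of the pathway list, the 8 genes with the largest ratios past 2-fold at each time are named, besides feedback and IkB family genes and the genes called lower, which were chosen after their values were seen. For each member, the 3 genes outside the lists with the highest r are given, among genes with a mean of at least 10 CPM, except 1 that is not reported here. The members, lists and comparisons were chosen with earlier results of these data known. Gene coordinates are those of GENCODE on GRCm38.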

Additional observations from a re-analysis of the deposited data

Results flagged for a closer look

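Tnfaip3 moved in opposite directions in different classes on day 3 against PBS. The log2 ratio of CPM was 2.36 (2.19 to 2.54) in monocyte/macrophages and 2.88 (2.32 to 3.50) in neutrophils, and -1.15 (-1.84 to -0.48) in plasmacytoid dendritic cells, where it rests on 46 UMIs in 50 cells of PBS and 34 UMIs in 83 cells of day 3. Each class has 1 library per group, and the difference between the classes was not tested. On day 7 the ratio in plasmacytoid dendritic cells was 0.04 (-0.51 to 0.60). Plasma cells also had less Tnfaip3, at 49.8 CPM in PBS, 26.9 CPM on day 3 and 22.8 CPM on day 7, without being called on the CPM + 10 scale.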

How the results depend on the processing

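No paired analysis was possible because each group has 1 library. The counts of members called higher in monocyte/macrophages (6 on day 3, 7 on day 7) and of pathway genes (21 and 35) were within 1.5 times of these under the other limits on UMIs, mitochondrial and ribosomal content, doublet removal, free RNA subtraction, Leiden clusters, means over cells, a pseudocount of 1 CPM and no filter on low genes. A limit at the knee of the pooled rank curve (10591 UMIs) left 4 members on day 3. A pseudocount of 50 CPM left 3 and 4 members and 23 pathway genes on day 7. Xist cells alone left 2 members and 8 pathway genes on day 3, and there the log2 ratio of Tnf reversed, to -0.26. In neutrophil cluster 14 alone, an alternative chosen after seeing the data, that of Nfkbiz on day 7 reversed, from 1.30 to -0.018. The cause of these differences was not tested. Thinning cells before summing and leaving out the sub-clusters with B, T and NK cell genes were also chosen after seeing the data and gave 7 and 8, and 6 and 7 members. Of the 20 log2 ratios of members in monocyte/macrophages, thinning moved 14 and the knee limit 6 beyond their counting interval, and that of Relb on day 3 went from 0.35 to 1.11 with thinning. The pseudocount of 50 CPM moved 17 of these ratios that far, TMM factors 12 and means over cells 2. Xist cells alone moved 13, besides the 1 that reversed. At a resolution of 0.8, 30 of 80 member levels in the named states moved as far. TMM factors added 0.13 and 0.27 to every log2 ratio, gave 7 and 9 members, and moved the share of called genes that were higher from 54.2% to 62.8% on day 3 and from 44.9% to 62.5% on day 7. This share was 69.6% on day 3 under the knee limit and 64.1% with the pseudocount of 50. Depth limits Il6 in every class and most members in the 52 PBS neutrophils of cluster 14.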
